A study of Mus musculus with 11 samples.

Results

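The genes described here encode the fibroblast growth factors (FGFs) and their receptors, the bone morphogenetic proteins (BMPs) and their receptors, and the growth and differentiation factors (GDFs). They were taken from the tables of amphetamine against control as the rows on chromosomes 1 to 19 whose symbols are Fgf, Bmp or Gdf with a number, or begin with Fgfr or Bmpr. This gave 47 of 24391 promoter rows and 50 of 25802 gene rows, or 47 of 23176 and 50 of 24521 on these chromosomes. Fgf7, Fgf10 and Gdf5 had a gene row and no promoter row. Of the 50 genes, 46 belong to the families and 4 match by name only: Bmp1, a protease that processes procollagen, Bmp2k, a kinase, and Fgfr1op and Fgfr1op2, which encode centrosomal and cytoskeletal proteins. DNA methylation was measured by reduced representation bisulfite sequencing (RRBS), which reads short DNA fragments rich in CpG sites, in the whole pancreas of wild-type C57BL/6N mice at postnatal day 0. The dams of 5 mice (3 females and 2 males) received amphetamine at 10 mg/kg on embryonic days 14.5, 15.5 and 16.5. The dams of the 6 control mice (3 females and 3 males) received saline. Which pups shared a litter is not given in the sources used here, so the p-values measure the spread between these mice, some of which may be littermates.

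FGFs bind receptor tyrosine kinases (Fgfr1 to Fgfr4) together with heparan sulphate or, for the hormone-like members, with a klotho co-receptor. BMPs and GDFs belong to the TGF-beta family and bind pairs of serine/threonine kinase receptors that phosphorylate Smad proteins. In the embryonic pancreas, Fgf7 and Fgf10 from the mesenchyme act on epithelial progenitors, Gdf11 restrains the number of endocrine progenitors, and Bmp4 and Bmpr1a act in islet cells. A promoter rich in CpG sites is usually unmethylated whether or not its gene is active, whereas CpG-poor promoters are often methylated where the gene is silent.

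The sequence around the start of a gene shows how dense its CpG sites are, although the promoter values rest on windows of 2000 bases. The 8 sequences below are RefSeq's, 250 bases before to 50 after the start, 5′ to 3′ on the gene's strand, in build GRCm38.p6, with each CG in capitals. Gdf10 and Gdf2 are neighbours on chromosome 14, as are Fgf23 and Fgf6 on chromosome 6, and in each pair the promoters differ in methylation. Fgf21 has an intermediate promoter, Fgfr3 is 1 of the 3 promoters that passed an unadjusted threshold, and Gdf11 and Gdf15 are the GDFs best known in the pancreas and as a stress hormone.
Gdf10, chr14:33923337-33923636, plus strand: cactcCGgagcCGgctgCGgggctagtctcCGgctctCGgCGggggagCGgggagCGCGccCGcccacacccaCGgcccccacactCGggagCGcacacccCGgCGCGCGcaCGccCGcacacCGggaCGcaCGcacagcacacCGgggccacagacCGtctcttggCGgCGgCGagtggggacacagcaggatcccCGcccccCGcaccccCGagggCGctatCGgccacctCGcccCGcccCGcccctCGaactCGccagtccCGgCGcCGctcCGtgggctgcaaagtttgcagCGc
Gdf2, chr14:33940789-33941088, plus strand: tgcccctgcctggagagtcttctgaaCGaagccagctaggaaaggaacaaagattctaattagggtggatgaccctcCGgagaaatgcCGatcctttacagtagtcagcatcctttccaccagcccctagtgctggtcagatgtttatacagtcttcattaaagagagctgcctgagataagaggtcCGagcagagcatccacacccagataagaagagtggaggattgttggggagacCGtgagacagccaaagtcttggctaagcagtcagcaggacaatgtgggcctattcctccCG
Fgf23, chr6:127072652-127072951, plus strand: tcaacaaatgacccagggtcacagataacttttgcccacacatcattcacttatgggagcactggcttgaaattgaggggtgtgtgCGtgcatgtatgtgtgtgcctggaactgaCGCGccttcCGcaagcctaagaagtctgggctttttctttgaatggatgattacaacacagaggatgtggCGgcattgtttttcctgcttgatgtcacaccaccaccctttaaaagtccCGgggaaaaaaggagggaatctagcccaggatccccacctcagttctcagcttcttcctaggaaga
Fgf6, chr6:127015292-127015591, plus strand: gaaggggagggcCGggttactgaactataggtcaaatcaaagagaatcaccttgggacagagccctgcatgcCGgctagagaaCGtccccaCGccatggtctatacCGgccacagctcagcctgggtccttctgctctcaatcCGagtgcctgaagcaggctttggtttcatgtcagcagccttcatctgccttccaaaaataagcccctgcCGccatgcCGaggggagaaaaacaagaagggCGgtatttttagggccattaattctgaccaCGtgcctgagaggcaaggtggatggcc
Fgf21, chr7:45615441-45615740, minus strand: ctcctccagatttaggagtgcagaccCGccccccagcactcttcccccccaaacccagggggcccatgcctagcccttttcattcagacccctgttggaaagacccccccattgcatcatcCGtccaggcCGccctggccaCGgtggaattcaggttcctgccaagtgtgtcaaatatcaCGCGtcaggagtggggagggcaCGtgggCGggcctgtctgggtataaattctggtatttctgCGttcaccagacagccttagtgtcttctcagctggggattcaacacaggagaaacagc
Fgfr3, chr5:33721474-33721773, plus strand: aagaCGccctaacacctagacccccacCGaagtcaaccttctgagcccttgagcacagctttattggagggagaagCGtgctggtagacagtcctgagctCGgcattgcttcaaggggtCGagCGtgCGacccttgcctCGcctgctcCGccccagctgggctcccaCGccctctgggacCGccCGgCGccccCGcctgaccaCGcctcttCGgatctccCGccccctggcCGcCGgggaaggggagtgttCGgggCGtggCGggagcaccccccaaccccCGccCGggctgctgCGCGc
Gdf11, chr10:128891669-128891968, minus strand: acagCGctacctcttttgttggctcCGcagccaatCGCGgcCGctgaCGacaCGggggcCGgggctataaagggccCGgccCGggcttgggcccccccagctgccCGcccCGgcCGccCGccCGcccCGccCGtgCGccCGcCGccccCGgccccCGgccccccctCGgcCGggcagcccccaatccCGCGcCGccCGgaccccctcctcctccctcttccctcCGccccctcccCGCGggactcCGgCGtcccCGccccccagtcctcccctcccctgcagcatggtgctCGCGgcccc
Gdf15, chr8:70632407-70632706, minus strand: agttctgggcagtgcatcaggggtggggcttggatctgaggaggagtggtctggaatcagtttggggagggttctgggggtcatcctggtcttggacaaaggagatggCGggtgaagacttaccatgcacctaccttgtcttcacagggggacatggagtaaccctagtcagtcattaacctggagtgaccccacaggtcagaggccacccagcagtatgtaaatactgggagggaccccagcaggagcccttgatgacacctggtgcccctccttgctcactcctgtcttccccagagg
These 300 bases held 42 CG in Gdf10 and 6 in Gdf2, 6 in Fgf23 and 10 in Fgf6, and 9 in Fgf21. They held 26 in Fgfr3, 36 in Gdf11 and 1 in Gdf15, against a median of 7 over the 27025 genes in the table of sequences. A site of MspI (CCGG), 1 of the enzymes that cut the DNA, was present in 52.6% of these sequences, and a site of TaqI (TCGA) in 22.1%. Neither was found in the sequences of Fgf21 and Gdf15, whereas Gdf11 had 9 MspI sites. The whole windows of Fgf21 and Gdf15 held 31 and 37 CpG sites, of which 9 and 13 lay within 50 bases of a site of either enzyme.

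The tables give each group's mean, SD, lowest and highest mouse and mean coverage, but no value for each mouse, so those are the values given. The number of mice is 5 with amphetamine and 6 controls unless another n is given. Coverage is taken here to sum the reads of all CpG sites in a region, although the headers leave this open. Its mean at the members' promoters ran from 5.60 to 1326 in the amphetamine group and from 7 to 1213 in controls, with medians of 372 and 308. The amphetamine group had the higher coverage at 36 of the 47 promoters and 46 of the 50 gene bodies. It also had the higher coverage at 19096 of all 23176 promoters on chromosomes 1 to 19. The part of coverage in the differences below was not tested. Of 26 cell type markers, 16 had a promoter row. Among those of other cell types, the promoters of the muscle genes Myog, Ckm and Myh4 had control means between 66.8% and 76.1%, and that of the B cell gene Cd79a was at 82.5%. Promoters of the pancreatic regulators Ptf1a, Pdx1, Sox9 and Neurod1 were at 3.56%, 3.25%, 4.36% and 5.07%. Of the remaining endocrine and duct markers, Sst was at 1.71% (5 mice), Krt19 at 40.2% (4 mice) and Gcg at 90% (5 mice). The acinar enzyme genes with a promoter row had control means from 46.7% to 90.3%, so promoter methylation alone does not show which cells the tissue held.

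Most promoters of these families were unmethylated in both groups. In controls, 36 of the 47 (76.6%) had a mean under 10%, against 54.5% of all promoters. These 36 include the 4 genes that match by name only. The median of the 47 was 2.70% against 6.67%. In 25 promoters, every mouse of both groups was under 10%. Means of 50% or more were found at 6 promoters (12.8%), against 31.4% of all promoters.

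**Figure D1:**
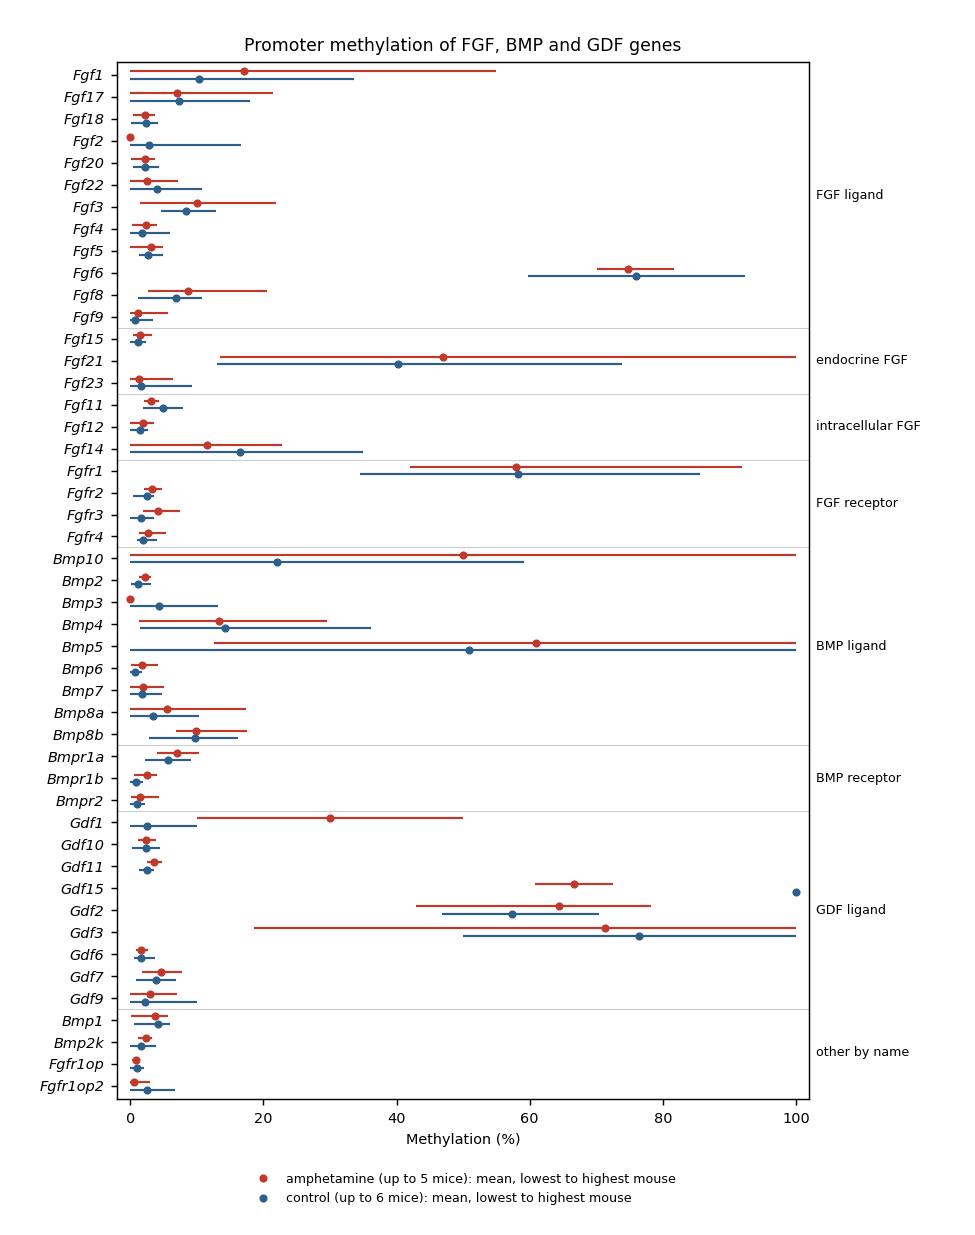
Promoter methylation (x axis, percent) of the 47 members (y axis), grouped by role; points are group means and lines run from the lowest to the highest mouse, red for amphetamine and blue for control. Most members lie under 10% in both groups, and the methylated ones, such as Fgf6, Fgfr1, Gdf2 and Gdf3, are so in both.

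Among the 12 secreted, paracrine FGFs with a promoter row, 10 were under 10% in controls, with a median of 3.37%. The exception at the top was Fgf6, a factor of skeletal muscle, at 75.9% ± 13.3 (SD) in controls and 74.8% ± 5.07 with amphetamine. No mouse had less than 59.8% there. Fgf1 was variable, from 0% to 33.7% in controls and from 0% to 55.0% with amphetamine, the highest mouse being a female. Fgf2 was at 0% in all mice but 1 control female, which had 16.7%.

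The endocrine FGFs differed from each other. Fgf15, the gut hormone that restrains bile acid synthesis, was at 1.18% ± 1.2 in controls. Fgf23, the bone hormone that lowers phosphate, was at 0% in 5 of 6 control and 4 of 5 amphetamine mice. The single remaining mice had 9.20% and 6.41%. Fgf21, a metabolic hormone made by the liver and by pancreatic acinar cells, had 40.3% ± 20.7 in controls, with mice from 13.0% to 73.8%. With amphetamine it had 46.9% ± 33.1, from 13.5% in a male to 100% in a female. The groups thus overlapped over nearly the whole range of the controls. Of the FGFs that stay inside the cell and act on sodium channels, Fgf11 and Fgf12 were at 4.92% and 1.43% in controls, and Fgf14 at 16.5% ± 15.7.

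Of the 4 FGF receptors, 3 had control means from 1.65% to 2.44%. The highest of these is that of Fgfr2, whose window lies at the start of Ctbp2. Fgfr1 was at 58.2% ± 19.2 in controls and 57.9% ± 20.3 with amphetamine. The 3 BMP receptor promoters were at 5.74% (Bmpr1a), 0.973% (Bmpr2) and 0.788% (Bmpr1b). Among the 9 BMPs, 6 were under 10%, among them Bmp2 (1.22%), Bmp6 (0.639%) and Bmp7 (1.70%). Bmp4 was at 14.2% ± 12.7, its control mice spread from 1.47% to 36.1%. Bmp5 had 50.9% ± 50 in the 3 control mice with reads, which ran from 0% to 100%. Bmp10, a heart factor, had reads in 3 controls (22.1% ± 32.3) and 4 amphetamine mice (50% ± 57.7) at a mean coverage of 7.5 and 5.60, too few for the test.

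The 9 GDF promoters had a control median of 2.50%. Gdf3, active in pluripotent cells, was at 76.5% ± 23.0 in controls and 71.3% ± 32.3 with amphetamine. Gdf2, also known as BMP9 and secreted by the liver, was at 57.4% ± 9.54 and 64.4% ± 14.1. Gdf15, a hormone of cell stress that acts on the hindbrain, was at 100% in each of the 4 controls with reads. The 2 amphetamine mice with reads there had 60.8% and 72.5%. With 2 amphetamine mice and a mean coverage of 7 in controls, this promoter was not tested. Gdf11 was at 2.46% ± 0.907 and 3.52% ± 1.15.

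Neighbouring members could lie far apart. The starts of Gdf10 and Gdf2 are 17.5 kb apart, and their promoters were at 2.30% ± 1.48 and 57.4% ± 9.54 in controls, with every Gdf2 mouse above every Gdf10 mouse. Fgf6 and Fgf23 start 57.4 kb apart and were at 75.9% and 1.53%. Fgf3, Fgf4 and Fgf15, which follow each other on chromosome 7 within 58.4 kb, were all low, at 8.31%, 1.69% and 1.18%.

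The methylated promoters were those with few CpG sites. The observed over expected CpG ratio is the number of CpG sites in the window divided by the number its C and G content would give at random. All 30 members with a ratio of 0.4 or more had control means of 9.76% or less. Of the 17 with a lower ratio, 7 were at 25% or more and 6 under 10%, a share of 35.3% against 14.2% of the 9591 promoters in that range. The sets were not matched by ratio within the range. The control median of all promoters fell from 83.7% at ratios under 0.1 to 39.6% between 0.3 and 0.4. Of the 6 low members, Bmp3, Fgf3, Fgf22 and Gdf1 lie between 0.3 and 0.4. Across the 47 members, the ratio and the control mean had a Spearman rho of -0.64, and across all 23176 promoters of -0.69. These promoters share the same libraries, and CpG content also sets how many sites the enzymes reach. A CpG island as the authors' tables list them overlapped 35 of the 47 windows (74.5%, against 55.4% of all promoters), of which none was above 9.76% in controls. The control median of these 35 was 2.38%, near the 2.61% of all promoters with an island. The 12 windows without one had a median of 45.6%, against 73.7% over all such promoters. Fgf23 had the lowest ratio of the members, 0.185, and yet was nearly unmethylated, in reads over few sites (a mean coverage of 46.7 in controls).

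**Figure D2:**
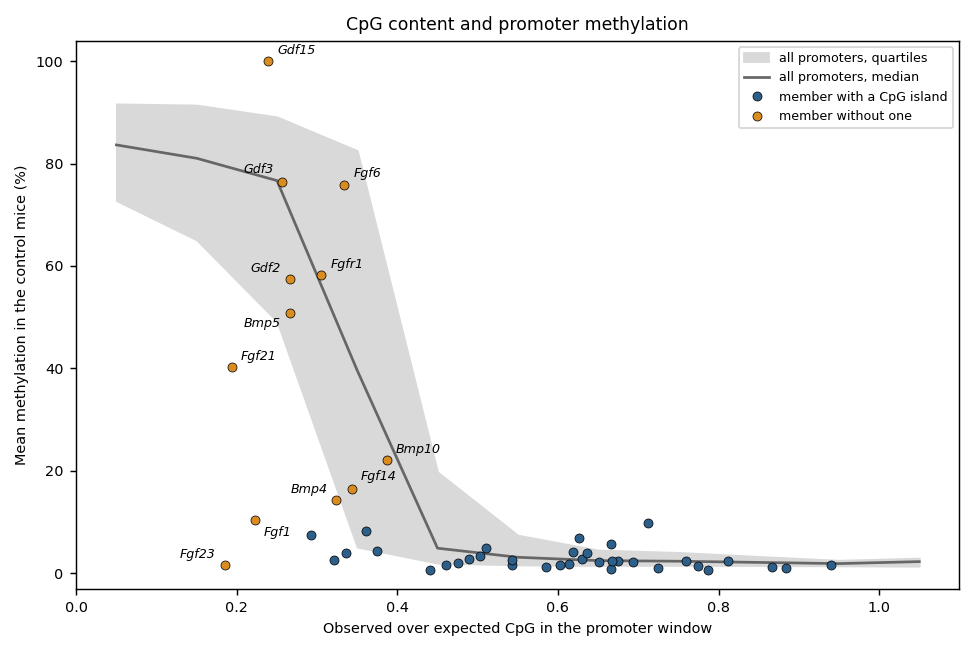
Observed over expected CpG ratio of the promoter window (x axis) against the mean methylation of control mice in percent (y axis), 1 point a member, blue with and orange without a CpG island; the grey line and band are the median and quartiles of all promoters by ratio. Members above a ratio of 0.4 lie under 10%, and the named ones without an island spread from Fgf23 at 1.53% to Gdf15 at 100%.

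For some genes the window is not where the gene is usually said to begin. A promoter row runs from 1500 bases before to 500 after the outermost annotated start of the gene. In the GENCODE annotation of the same build, the windows of Fgf2 and Gdf9 held none of the genes' own protein-coding starts, but the starts of Cetn4 and Bbs12, and of Uqcrq. The Fgfr1 window held 1 of 9 starts. A CpG island downstream that held 5 of the others (chr8:25518749-25519478) was at 1.40% ± 1.36 in controls and 1.52% ± 0.386 with amphetamine. The window at 58.2% and the island at 1.40% thus belong to the same receptor gene. A tile of 5000 bases further inside, with 2 more starts, was at 74.1% ± 12.9 and 73.1% ± 16.2. The Fgfr2 window lies at the start of Ctbp2, since the gene row spans 2960900 bases. It held 1 of 17 starts, the nearest other being 2857090 bases away. Of the others, 13 lie in a tile at 48.7% ± 15 in controls and 50.2% ± 10.5 with amphetamine, and 3 in the next tile, at 2.98% ± 1.18 and 3.75% ± 1.14. An island in that next tile (chr7:130264992-130266512) was at 1.71% ± 0.426 and 2.60% ± 0.699. Low and intermediate methylation thus lay side by side at the starts of Fgfr2. For Fgf10, which has no promoter row, the island at its only protein-coding start, 44.9 kb inside the gene row, was at 3.79% ± 2.79 and 2.96% ± 1.73. At Fgf2 the island near its own starts was at 3.97% ± 5.63 and 3.10% ± 5.07.

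Outside the starts, methylation was high. In tiles of 5000 bases around the 46 family genes, the control median was 9.30% in the tiles centred within 2.5 kb of the annotated start. It was 46.2% between 2.5 and 7.5 kb inside the gene and 73.6% at the same distance upstream. From 7.5 to 47.5 kb on either side it lay between 68.0% and 83.8%.

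**Figure D3:**
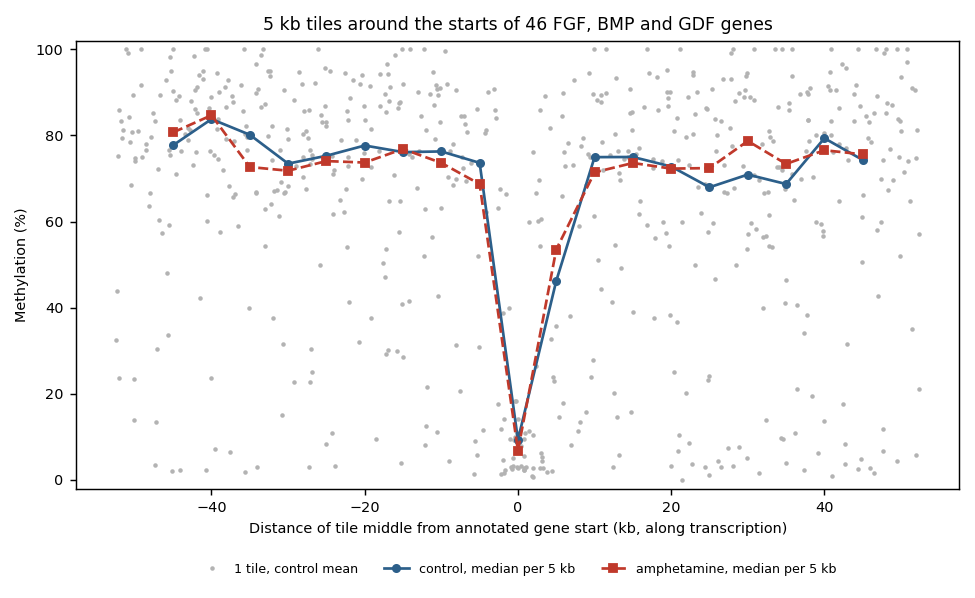
Methylation of 5 kb tiles (y axis, percent) by the distance of the tile's middle from the annotated gene start (x axis, kb, positive inside the gene) for the 46 family genes; grey points are control means of single tiles, and lines are medians per 5 kb, blue for control and red for amphetamine. Both lines dip at the start, to 9.30% and 6.81%.

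The treatment comparison asked whether these promoters differed in methylation at birth after amphetamine in utero. Of the 47 promoters, 45 passed the filters (a mean coverage of 10 and 3 mice in each group). No member had an adjusted p under 0.05 in limma's moderated test on the group means and SDs, nor did any of the 21492 promoters tested (0%). The smallest adjusted p of a member was 0.946. At an unadjusted p under 0.05 there were 3 members of 45 (6.67%), against 4.18% of all promoters tested. In none of the 43 members with reads in all mice did the ranges of the groups fail to overlap, against 0.407% of all promoters. The share past the unadjusted threshold was thus near the background.

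The 3 promoters were those of Gdf1, Bmpr1b and Fgfr3, all higher with amphetamine. Gdf1, a factor of left-right patterning, had 30.0% ± 19 with amphetamine, from 10.0% to 50%. Its controls had 2.50% ± 5 in the 4 mice with reads, 3 at 0% and 1 male at 10.0%. The lowest amphetamine mouse and the highest control were therefore equal. The difference was 27.5 percentage points (95% interval 7.81 to 47.2, adjusted p = 0.946 in limma's test). The window's value equals that of a CpG island inside it (chr8:70330040-70330276) with a mean coverage of 59.6 and 71.3. A second Gdf1 island next to it (chr8:70330650-70332330) had the higher coverage of 634 and 442 and was at 75.6% ± 4.74 and 73.4% ± 4.24, with an adjusted p of 0.961.

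Bmpr1b, a type I BMP receptor of cartilage and ovary, had 2.56% ± 1.33 with amphetamine, from 0.629% to 4.07%, and 0.788% ± 0.827 in controls, from 0% to 1.92%. The difference was 1.77 percentage points (0.166 to 3.37, adjusted p = 0.946). Fgfr3, the receptor that restrains bone growth, had 4.19% ± 2.18 (1.90% to 7.43%) and 1.65% ± 1.54 (0% to 3.58%). Its difference was 2.54 points (0.0908 to 4.99, adjusted p = 0.946). Both promoters stayed below 10% in every mouse, and the groups overlapped at both.

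The other large differences among the tested promoters came from those with wide spreads. There Bmp5 had the largest positive one after Gdf1, 10.0 points with an interval from -49.5 to 69.6, followed by Gdf2 with 6.98 points (-10.6 to 24.5). The lowest tested were Gdf3 with -5.11 points (-37.6 to 27.4), Fgf14 with -5.0 points (-21.2 to 11.2) and Bmp3 with -4.27 points (-8.63 to 0.0874). Bmp3, an atypical BMP that opposes the others, was at 0% in all 5 amphetamine mice. Its controls ran from 0% to 13.1%, the highest being a male (adjusted p = 0.946).

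For the genes with known roles in the pancreas the differences were small against their intervals. Gdf11 differed by 1.06 points (-0.666 to 2.79), Bmp7 by 0.270 (-2.25 to 2.79), Bmpr1a by 1.24 (-2.36 to 4.83) and Fgfr2 by 0.829 (-0.993 to 2.65). The Fgfr2 window, however, lies at the start of Ctbp2 and holds 1 of 17 Fgfr2 starts. The tiles with 13 and 3 of the other starts differed by 1.53 and 0.774 points. Bmp4 differed by -0.834 points (-14.8 to 13.1), Fgfr1 by -0.272 (-25.5 to 24.9) and Fgf21 by 6.64 (-26.2 to 39.5). Over the 45 tested promoters the interval left out a change of 25 points in either direction at 39, and of 5 points at 26. At the most variable promoters, such as Bmp5 (-49.5 to 69.6) and Gdf3 (-37.6 to 27.4), even a change of 25 points was not left out. These intervals are for single promoters and are not adjusted for the number tested.

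**Figure D4:**
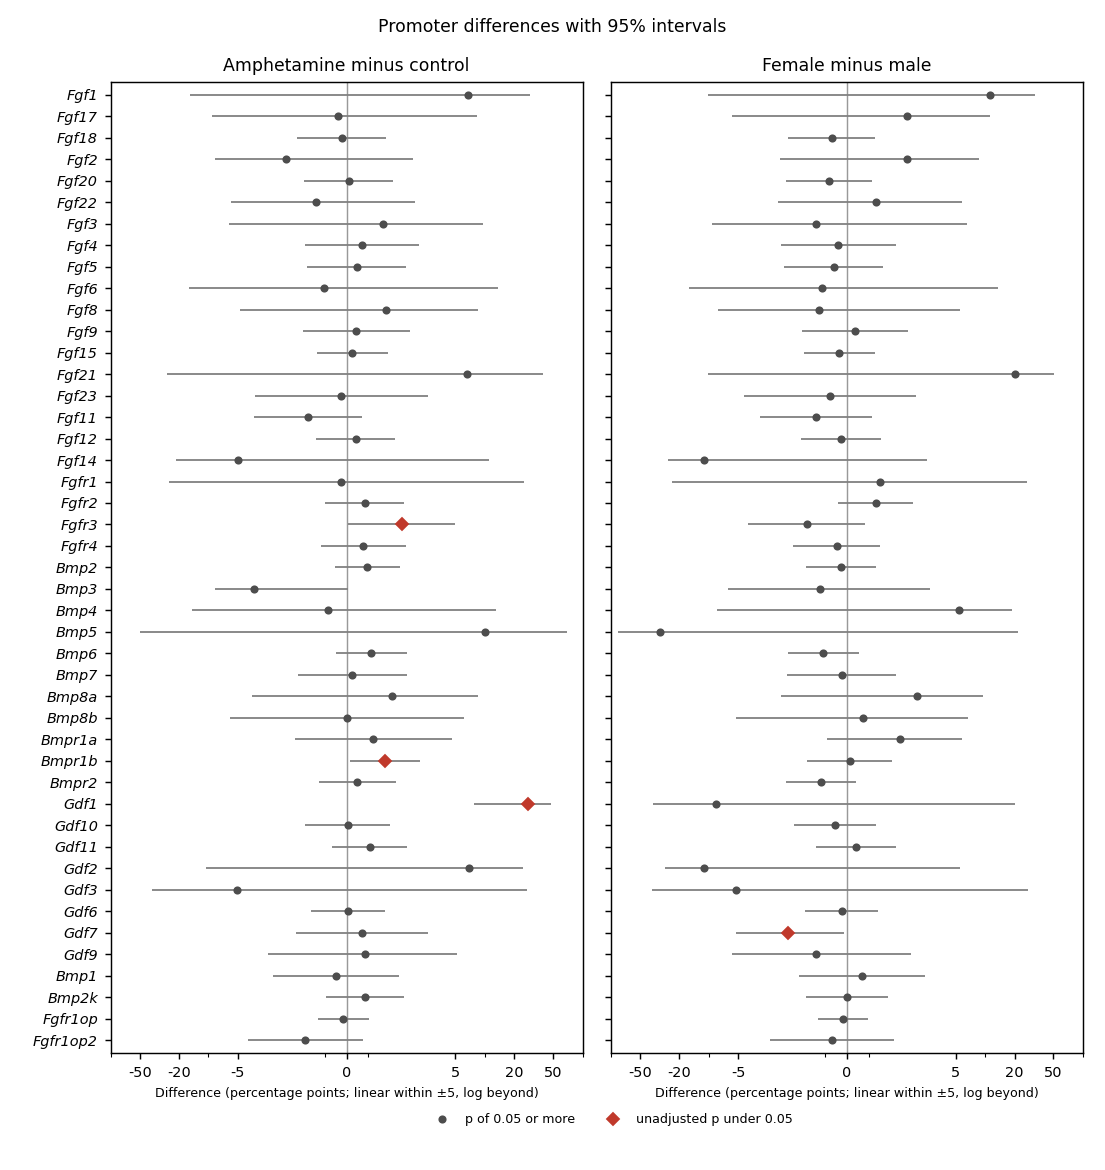
Differences of the 45 tested promoters in percentage points (x axis, linear within 5 points and logarithmic beyond) with 95% intervals, amphetamine minus control on the left and female minus male on the right; red diamonds mark an unadjusted p under 0.05. Gdf1, Bmpr1b and Fgfr3 are marked on the left and Gdf7 on the right, and the widest intervals belong to Bmp5, Gdf3 and Fgf21.

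In direction, 30 of the 45 tested promoters were higher with amphetamine and 15 lower, with a median difference of 0.457 points. Of all tested promoters 49.3% were higher, with a median of -0.03 points. Among promoters with a CpG island, 26 of 35 members were higher (74.3%) against 48.9% of all. All 3 BMP receptors, 7 of 8 GDFs, 6 of 8 BMPs, 7 of 12 FGF ligands, 3 of 4 FGF receptors and 2 of 3 endocrine FGFs were on the higher side. Of the intracellular FGFs 1 was higher and 2 lower, and of the genes that match by name only 1 was higher and 3 lower. These shares are descriptions, and 24 of the 45 differences were under 1 point. The CpG island inside a window did not always share the direction of the promoter row. At Bmp2, Bmp7 and Bmp8a, among others, the promoter was higher with amphetamine and the island lower. At Fgf11 and Fgf18 it was the reverse.

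Gene bodies covered a wider range. Their control means ran from 2.75% (Gdf7) to 100% (Fgf21, 3 mice), with a median of 32.6% against 51.3% of all genes. In 42 of the 47 genes with both rows the body was above the promoter. The highest were Fgf21, Bmp10 (89.1% ± 20.1), Fgf6 (88.1% ± 7.94), Fgf12 (87.2% ± 1.65) and Fgf7 (86.8% ± 5.38). The lowest after Gdf7 were Fgf3 (3.27% ± 1.94) and Fgf4 (3.58% ± 2.62).

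**Figure D5:**
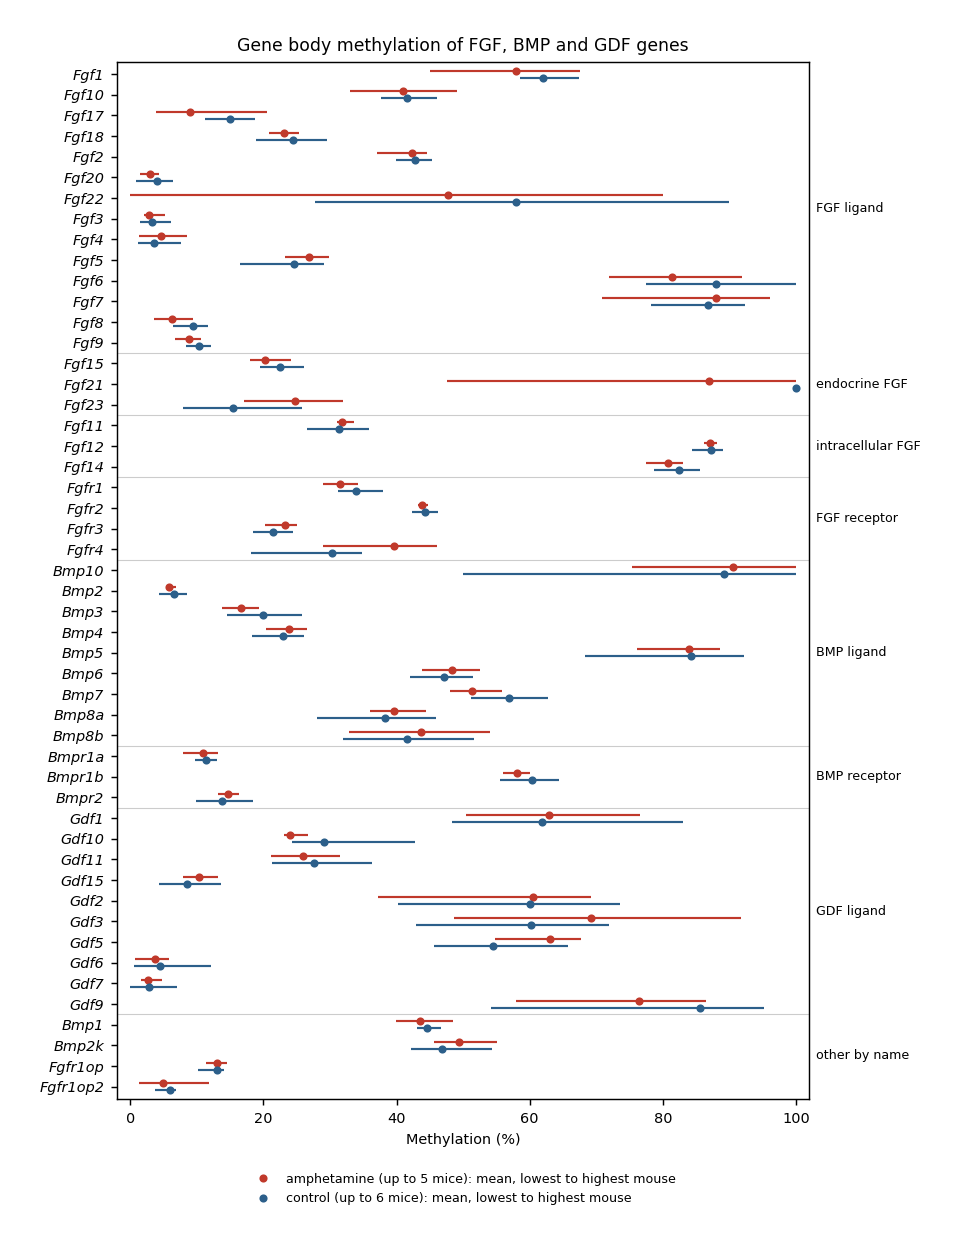
Gene body methylation (x axis, percent) of the 50 members (y axis), grouped by role; points are group means and lines run from the lowest to the highest mouse, red for amphetamine and blue for control. Fgf23 and Fgfr4, the 2 with an unadjusted p under 0.05, have higher means with amphetamine and overlapping ranges.

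Of the 50 gene bodies, 49 were tested, and none had an adjusted p under 0.05 in the same test (0% of the 23475 tested), the smallest being 0.988. An unadjusted p under 0.05 was found for 2 of 49 (4.08%), against 4.18% of all gene bodies. No member had groups that did not overlap, against 0.322% of all. The 2 genes were Fgf23, with 24.7% ± 5.99 (17.0% to 31.9%) with amphetamine and 15.4% ± 6.05 (7.90% to 25.8%) in controls, and Fgfr4. The Fgf23 difference was 9.31 points (adjusted p = 0.988), and the highest mouse was a female with amphetamine and the lowest a control female. Of its 3 tiles, the one around the start differed by 11.1 points, the next by 0.842 and the last by 8.82, none with an unadjusted p under 0.05.

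Fgfr4, the receptor through which Fgf15 acts on liver cells, had 39.6% ± 6.59 (28.9% to 46.1%) and 30.3% ± 6.20 (18.1% to 34.9%). The difference was 9.28 points (adjusted p = 0.988). Its promoter differed by 0.767 points, and its 3 tiles by 2.48 to 5.33 points. The control means were 11% around the start and 89.5% and 81.4% further in, and the amphetamine group had more coverage at each (543 against 395 around the start, then 218 against 124 and 94 against 40.7). The part of this in the gene's difference was not tested.

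A further 4 gene bodies had unadjusted limma p-values from 0.05 to 0.06 and an adjusted p of 0.988. They were Bmp7 (51.3% against 56.9% in controls), Fgf17 (9.0% against 14.9%), Fgf8 (6.29% against 9.40%) and Gdf5 (63.1% against 54.4%). Gdf5, a factor of joints, lies within 1 tile of the same values, which did not come near the unadjusted threshold against the spread of all tiles.

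None of the other named gene bodies had an unadjusted p under 0.05. Gdf3 had 69.2% ± 19.4 and 60.2% ± 11.5, and Gdf9, an oocyte factor, 76.5% ± 11 and 85.5% ± 15.6. Fgf22, which organizes synapses, had the lowest difference of the tested gene bodies, -10.3 points (47.7% ± 31.6 and 58.0% ± 21.1). Fgf6 had 81.4% ± 8.47 and 88.1% ± 7.94. Fgf7 differed by 1.17 points, Fgf10 by -0.548, Fgfr1 by -2.36, Fgfr2 by -0.535, Bmp4 by 0.852, Bmpr1a by -0.520, Gdf11 by -1.63 and Gdf15 by 1.78. The Fgfr2 row spans 2960900 bases, and all but 1 of its 17 starts lie at least 2857090 bases inside it. Its value therefore rests mostly on sequence before those starts. For Fgf10 the means were 41.0% ± 6.46 and 41.5% ± 2.79. Fgf21 was at 100% in the 3 controls with reads, and at 100% in 3 amphetamine mice and 47.6% in 1 amphetamine male, at coverages of 7.17 and 20.4 that did not pass the filter.

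The direction was not that of the promoters: 20 gene bodies were higher and 29 lower, with a median of -0.394 points against -0.146 over all. Among the FGF ligands 11 of 14 were lower, whereas 5 of 9 BMPs and 5 of 10 GDFs were higher. The FGF receptors were split 2 to 2, and 1 of 3 BMP receptors was higher. Of all gene bodies tested, 48.0% were higher.

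CpG islands and tiles describe the same genes at a finer scale, partly from the same reads as the promoter and gene rows. At the members other than Fgfr2 there were 54 islands, 35 of them in promoter windows, with a control median of 2.60% against 2.04% over all islands. In 50 of the 54 the control mean was under 10%. The 4 others lie inside the genes or next to them, at Bmp8a (36.6% ± 13.7), Bmp8b (43.0% ± 11.3), Gdf5 (62.6% ± 11.5) and Gdf1 (73.4% ± 4.24). An unadjusted limma p under 0.05 was found for 3 of the 54, against 3.82% of the 13920 islands tested. They were the islands in the Gdf1 and Bmpr1b windows, with the same values as those promoter rows, and 1 in the body of Gdf15 (chr8:70629691-70630158). The Gdf15 island had 0.595% ± 0.509 with amphetamine and 2.26% ± 1.25 in controls (adjusted p = 0.920).

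Across the same genes 290 tiles were tested, 126 of them higher with amphetamine and 163 lower (43.4% higher, against 49.0% of all tiles). Fgfr2, whose row spans 2960900 bases, was left out. It had 306 tested tiles, 19 of them with an unadjusted p under 0.05. Among the 290 tiles, 13 had an unadjusted p under 0.05 (4.48%), against 4.21% of all tiles. Of those 13, the tiles in Bmp2k and Fgf5 were higher with amphetamine and the other 11 lower. The smallest adjusted p was 0.978. The Fgf9 tile at the gene's end had 51.5% ± 13.0 and 77.9% ± 17.8, with mice from 32.4% to 65.2% and from 54.2% to 100%. A tile over the start of Gdf10 had 6.81% ± 0.511 and 9.59% ± 2.08. Bmp7 had a pair of such tiles, with controls at 99.1% in both and amphetamine means of 76.8% ± 25.3 and 82.9% ± 20.1.

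The sex comparison used the same 11 mice, 6 females and 5 males, so it is not independent of the treatment comparison. No member promoter had an adjusted p under 0.05 in limma's test, against 0.00466% of all promoters, and 1 of 45 had an unadjusted one, against 4.6%. This was Gdf7, a factor of the dorsal neural tube, with 2.95% ± 1.87 in females (0.888% to 5.37%) and 5.66% ± 1.75 in males (3.28% to 7.70%). The difference was -2.70 points, female minus male (adjusted p = 0.938), and the ranges overlapped. By treatment the same promoter had 4.57% and 3.86%. No promoter of a member had sexes that did not overlap, against 0.462% of all.

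The promoters called by treatment had no unadjusted p under 0.05 by sex. Gdf1 had 15% ± 20.0 in the 6 females and 23.3% ± 23.1 in the 3 males with reads, Bmpr1b 1.65% and 1.52%, and Fgfr3 1.97% and 3.81%. Fgf21 had 52.6% ± 31.0 in females and 32.2% ± 13.5 in males (adjusted p = 0.938). Of the gene bodies none had an adjusted p under 0.05 (0% of all) or an unadjusted one (5.28% of all), nor sexes that did not overlap (0.449% of all). Gdf9 had the lowest unadjusted p, with 87.2% ± 6.71 in females and 74.4% ± 17.6 in males.

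Around the ligands and receptors, 73 genes of the 2 pathways were listed: antagonists and binding proteins, other receptors, signal transducers, targets and feedback regulators, and other TGF-beta ligands. Of these, 66 had a promoter row and 65 were tested, with a control median of 2.44% and 54 under 10%. None had an adjusted p under 0.05, and 4 of the 65 had an unadjusted one, against 4.18% of all promoters tested: 3 were higher with amphetamine and 1 lower. Of 70 gene bodies tested, none had an adjusted p under 0.05, 2 were higher (Inha and Rgma) and 1 lower (Frs2) at the unadjusted threshold, which 4.18% of all gene bodies passed.

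In 2 of the 65 promoters with reads in all mice, 3.08% against 0.407% of all promoters, the groups did not overlap. Nog, which encodes noggin, the secreted antagonist that binds BMPs, had 2.56% ± 0.923 with amphetamine (1.81% to 4.17%) and 1.04% ± 0.534 in controls (0.104% to 1.45%). Id4, a target of BMP signalling, had 2.63% ± 1.3 (1.65% to 4.90%) and 0.888% ± 0.495 (0.11% to 1.42%). For a single promoter chosen in advance such a separation has an exact two-sided p of 0.00433, the smallest that 5 against 6 mice allow. Nog and Id4 were picked out of the 65 because their groups separated, so this p does not apply to them. Their adjusted limma p was 0.946. The others past the unadjusted threshold were Smad2, a transducer of activin signals (2.34% against 0.915% in controls), and Spred1, an inhibitor of the FGF pathway (0.564% against 2.03%). All 4 promoters were under 5% in every mouse.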

How the data were processed

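RRBS libraries of 11 P0 pancreata were made by the authors with MspI and TaqI, aligned with Bismark to mm10 (run through NextFlow methylseq) and summarized per region with RnBeads. The submitters' notes also name methylKit and limma, and the versions of Bismark, methylKit and limma that the authors ran are not given in the sources used here. The deposited methylation level is a fraction averaged by the authors over the mice of a group, printed here as a percent. The coverage is a signal averaged by the authors, not normalized for depth. Other columns the authors deposited, the SD, lowest, highest and number of mice without reads, were used as given. The authors' own differences, log2 quotients, p-values, adjusted p-values and ranks were not used. Groups came from the labels.

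Because values for each mouse were not analysed here, group means and SDs were compared with limma 3.58.1 in R 4.3.3. Pooled variances were squeezed with a trend on mean methylation, tests were two-sided, and p-values were adjusted by Benjamini-Hochberg over all regions of a class on chromosomes 1 to 19 with a mean coverage of at least 10, 3 mice in each group and an SD above 0 in at least 1. The test was checked on simulated promoters with reads in every mouse, independent mice and large added shifts. That check does not cover small differences, missing mice or littermates. Sex was not a covariate of the treatment comparison, since group summaries do not allow one. Intervals cover the spread between mice, and depth per mouse is unknown. Alternatives were the coverage minimum, variance model, centring, call rule, region class and leaving out 1 mouse.

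Named genes were the 5 highest members in controls, the 3 largest differences each way, those past an unadjusted 0.05, and 10 with known roles. Other members, such as Gdf10, Fgf2, Bmp8a and the neighbouring pairs, and the tiles, were named after their values were seen. The members and lists were chosen with earlier results of these data known. RefSeq sequences of GRCm38.p6 matched 35 of the 50 members by symbol.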

Additional observations from a re-analysis of the deposited data

How the results depend on the processing

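Adjusted p-values stayed at or above 0.05 for every member under each coverage minimum, variance model and centring tried, at an adjusted threshold of 0.1 and under the thresholds of the methods (fold change of 1.5 and 25 points). The 3 member promoters past the unadjusted threshold by treatment became 1 without a variance trend. Across the alternatives Bmpr1b stayed past it in 5 of 6, Fgfr3 in 4 of 6 and Gdf1 in all 5 in which it was tested. By sex, the 1 promoter became 2 with no coverage minimum and 0 with robust squeezing. The number of promoters at or above 50% in controls, 6, was 3 at a threshold of 75%. It was 4 at a mean coverage of 30 and, in a setting chosen after seeing the data, 5 among windows that hold the gene's median protein-coding start. Median differences over the members kept their sign: by treatment they lay between 0.426 and 0.486 points at promoters and between -0.457 and -0.248 at gene bodies, and by sex between -0.460 and -0.353 and between 0.585 and 0.808.

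Over the 6 members past the unadjusted threshold, adjusted p-values ranged from 0.931 to 0.993. Leaving out any 1 mouse kept the Gdf1 promoter difference between 22.5 and 32.5 points, that of Bmpr1b between 1.39 and 2.25, that of Fgfr3 between 1.73 and 3.11, and the gene body differences of Fgf23 between 7.52 and 11.4 and of Fgfr4 between 6.85 and 11.9. Of the 37 named differences, 151 values under alternatives were computed; 147 moved by less than the larger SD (not Bmpr1a and Gdf11 as the median of tiles across the gene, nor the Bmp7 and Gdf15 promoters as the tile at the start), and 27 changed sign, none of them for a member past the unadjusted threshold. No paired analysis was possible because the tables hold group summaries and no source used here pairs the mice. Values for each mouse were not analysed here, so outlying mice could be read only from the lowest and highest values.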
